A study of Mus musculus with 12 samples.

Results

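The heat shock chaperones followed here are 10 genes: Hspa1a, Hspa1b, Hspa8, Hsph1, Hsp90aa1, Dnajb1, Hspb1, Hspd1, Hspe1 and Bag3. They were taken as every probe of the scanner files that carries the name of one of them. Of the 10 genes, 9 had a probe of their own name, and all 9 were among the 22765 genes tested. Hspa1b had none, but the probe of Hspa1a is listed in the files for the transcripts of Hspa1a and Hspa1b, so its signal may come from either gene of this almost identical pair and is called Hspa1a below. The group was chosen by measured values: Hspa1a was selected on its fall in WT aorta under challenge, and the list as a whole was drawn up with earlier results of these data known. For that reason all comparisons that involve a WT group are given for these genes as a description without a test. Only the challenge response of the smSocs3-KO arrays, whose difference of means shares no array with that choice, was tested. The spread used in that test was estimated over all 12 arrays, WT included. Its SE and p-values are therefore not independent of the arrays that singled out Hspa1a.

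Aortic RNA of male mice was measured on 12 one-colour arrays, 3 in each of 4 groups. WT mice were Socs3 fl/fl littermates without a Cre transgene, and smSocs3-KO mice were Socs3 fl/fl mice carrying SM22-Cre, in which a smooth muscle promoter drives the recombinase that deletes Socs3. All mice therefore carried the floxed Socs3 alleles, and the strain was labelled as 129S5/SvEvBrd, C57BL6 and SJL. The methods of the paper, which cites an earlier report for these arrays, give an age of 11 to 14 weeks for its animal experiments. The sample labels give no age. Each genotype was sampled before challenge and at day 3 of BAPN + AngII challenge, a combined infusion by osmotic minipump of β-aminopropionitrile (BAPN, 150 mg/kg/day), which blocks collagen and elastin crosslinking, and angiotensin II (AngII, given at 1000 ng/kg/min), a vasoconstrictor peptide. The challenge is used as a model of aortic dissection. Whether RNA was pooled is not given in the sources used here, and p-values measure only the spread between these arrays.

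On the arrays as a whole, 55.4% to 61.2% of spots were well above background, none was saturated, and replicate arrays of a group correlated at r = 0.964 to 0.992. The smooth muscle markers Acta2, Myh11, Tagln and Cnn1 were well above background on all 12 arrays. Socs3 was not lower on the arrays labelled smSocs3-KO. Its log2 level was 0.94 ± 0.63 there before challenge and 0.45 ± 0.25 in WT, and at day 3 it was 3.24 ± 0.93 and 1.72 ± 0.93 (SD, n = 3 each). Whole aorta also holds cells in which SM22-Cre is not active, and whether the probe lies in the deleted part was not examined. The genotype is therefore given below only as the label of an array. All 6 WT arrays and smSocs3-KO before challenge replicate 1 lay on slide 1, and the other 5 smSocs3-KO arrays lay on slide 2, so slide and genotype are largely confounded.

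Heat shock proteins are chaperones that bind unfolded proteins and help them fold, keep them soluble or pass them on for degradation. When unfolded proteins accumulate, heat shock factor 1 binds heat shock elements in the promoters of these genes and raises their transcription within minutes, Hspa1a and Hspa1b most steeply. In arterial smooth muscle the response is known to follow heat, stretch and vasoconstrictors.

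The probe sequence of Hspa1a is given because it shows what the array could detect. The upstream sequences that follow describe the promoters and were not measured by the array. The single Hspa1a probe is a 60-base oligonucleotide placed by the array design at chr17:35107117-35107176 of mm9, on the minus strand:

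Hspa1a probe: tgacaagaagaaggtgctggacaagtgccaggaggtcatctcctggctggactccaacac

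Upstream sequence was read from the RefSeq promoter table of assembly GRCm38.p6, in which 8 of the 10 genes had an entry. Of the 250 bases before the start of Hspa1a and of Hspa1b, 3 differ. The window of Hspa1a lies at chr17:34972157-34972406 on the minus strand, and capitals mark its heat shock element letters:

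Hspa1a upstream: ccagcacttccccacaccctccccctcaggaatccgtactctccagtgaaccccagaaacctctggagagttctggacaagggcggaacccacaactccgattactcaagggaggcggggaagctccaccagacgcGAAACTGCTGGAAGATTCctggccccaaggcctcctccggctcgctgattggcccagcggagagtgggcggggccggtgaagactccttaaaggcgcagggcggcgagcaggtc

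A heat shock element is a run of GAA and TTC units in alternation, each spaced by 2 bases. The letters searched were 2 units (GAANNTTC or TTCNNGAA) and 3 units (GAANNTTCNNGAA or TTCNNGAANNTTC, the reverse complements of each other), the latter also with at most 1 of the 9 set letters different. Matches may overlap, and the shorter motif lies inside the longer one. Of 32851 windows of 250 bases in the table, 12.8% held 2 units, 0.466% held 3 exact units and 6.08% held 3 units with at most 1 letter different. Of the 8 chaperone genes with an entry, 6 held the 3-unit motif at that tolerance in any of their windows. It was exact in 2, Hspd1 and Hspe1, which share the same bases. These counts are of genes, some with more than 1 window, while the shares above are of windows, so they are not like for like. Of the other heat-inducible genes listed below, 5 of 16 with an entry held it at that tolerance and 0 of 16 exactly. The stretches of 30 bases that carry it are shown for comparison, with the letters of any 2-unit or 3-unit match in capitals:

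Hspa1a and Hspa1b: agacgcGAAACTGCTGGAAGATTCctggcc

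Hsph1: gaatctTTCTCGAAGGCTCGAGAAgaagga

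Hspb1: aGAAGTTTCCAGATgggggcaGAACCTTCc

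Hspe1: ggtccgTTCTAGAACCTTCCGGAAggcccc

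Hspd1: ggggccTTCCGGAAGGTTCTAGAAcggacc

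In GRCm38.p6, the Hspa1a stretch lies at chr17:34972247-34972276 and the identical Hspa1b stretch at chr17:34959329-34959358, both on the minus strand. The Hsph1 stretch lies at chr5:149636346-149636375 on the minus strand and the Hspb1 stretch at chr5:135887801-135887830 on the plus strand. Those of Hspe1 (plus strand) and Hspd1 (minus strand) are the same bases, chr1:55088053-55088082, read in opposite directions. This pair encodes the mitochondrial chaperonin and its lid, is transcribed head to head, and its starts in the table are 215 bases apart. For Hspd1 the window of a second start farther upstream held no match. No match was found for Dnajb1 and Bag3 in these windows, which says only that the letters are absent there. Hspa8 and Hsp90aa1 were the other members.

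Levels below are log2 signals minus that array's own 75th percentile, so a value of 1 is a signal at 2 times that percentile, and a level of one gene is not comparable with that of another. Hspa1a encodes the inducible cytosolic Hsp70, the chaperone that rises from a low level under stress. In WT aorta before challenge the Hspa1a level was 2.65, 2.82 and 2.01, and at day 3 it was 0.90, -0.74 and 0.65. The WT groups did not overlap, and the lowest array was WT day 3 replicate 3. On the arrays labelled smSocs3-KO the Hspa1a level was 3.15, 1.01 and 1.29 before challenge and 0.05, 1.21 and 1.80 at day 3. Here the groups overlapped, and a single array before challenge stood far above the other two.

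The difference of means for Hspa1a was -2.22 in WT, a level 4.67-fold lower at day 3, and 25 of the 22765 genes had a larger fall. The value ranged from -2.54 to -1.72 on leaving out each array in turn, the smallest fall being that without WT day 3 replicate 3. This fall is what singled the gene out. In the smSocs3-KO response the difference was -0.80 (SE 0.63, 95% interval -2.19 to 0.60), and limma gave an adjusted p = 0.453 over all genes. The interval reaches from a fall almost as large as that in WT to a rise. Without smSocs3-KO before challenge replicate 1, which leaves only slide 2 arrays in the smSocs3-KO groups, the difference was -0.13. Before challenge, Hspa1a differed between the labelled genotypes by -0.68, and at day 3 by 0.75, with overlapping groups on each occasion.

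**Figure D1:**
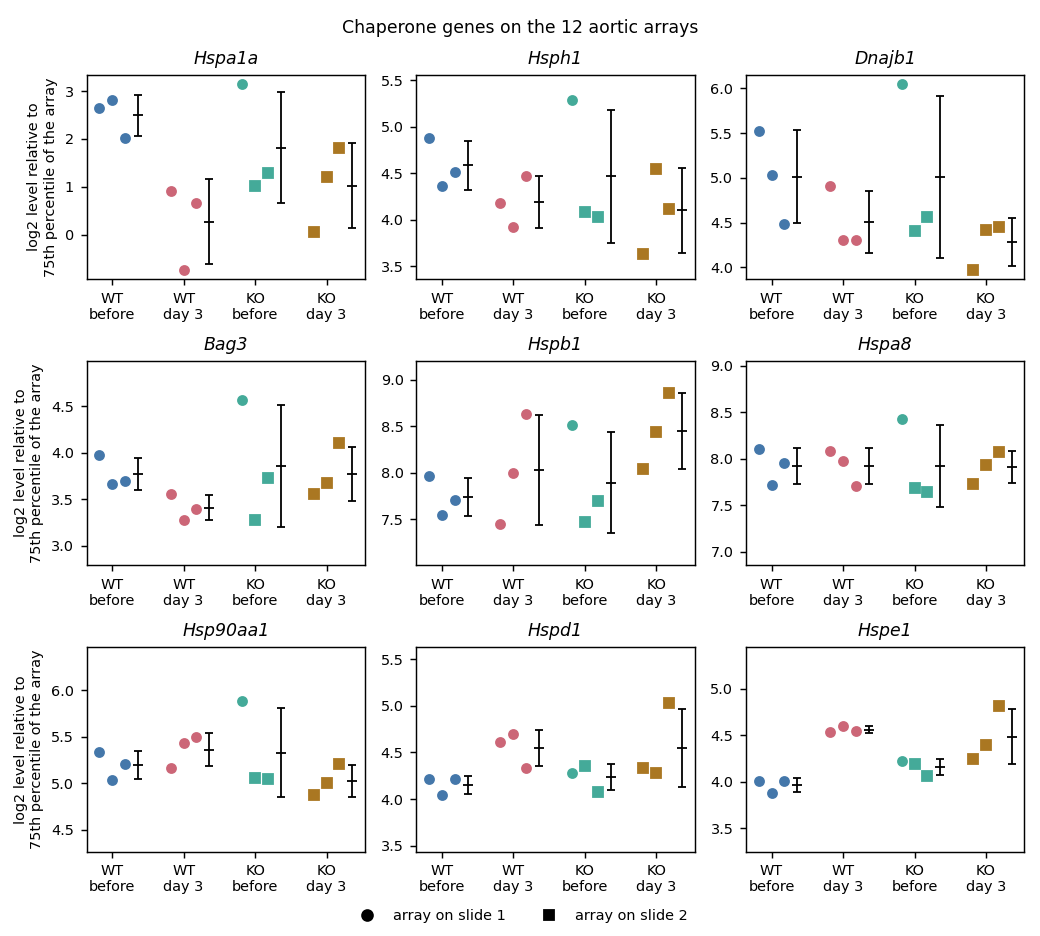
Log2 level of 9 chaperone genes (y axis, relative to the 75th percentile of the array) on each of 12 arrays in 4 groups (x axis), with circles for slide 1, squares for slide 2 and a dash and bar for the mean and SD of 3 arrays. Hspa1a lies at 2.01 to 2.82 in WT before challenge and at -0.74 to 0.90 in WT day 3, and the slide 1 array of the smSocs3-KO before group stands above the slide 2 arrays in most panels.

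Dnajb1, Hsph1 and Bag3 encode partners of Hsp70. Dnajb1 is the J-domain protein that delivers unfolded protein to Hsp70 and starts its ATP cycle. Its level was 5.52, 5.03 and 4.48 in WT before challenge and 4.91, 4.31 and 4.31 at day 3. On the arrays labelled smSocs3-KO it was 6.05, 4.41 and 4.56 before challenge and 3.97, 4.42 and 4.45 at day 3. The difference at day 3 was -0.50 in WT, with overlapping groups. In the smSocs3-KO response the Dnajb1 difference was -0.73 (SE 0.42, 95% interval -1.65 to 0.19, limma adjusted p = 0.304), and within slide 2 it was -0.21.

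Hsph1 encodes Hsp110, a nucleotide exchange factor that resets Hsp70. Its level in WT was 4.88, 4.36 and 4.51 before challenge and 4.18, 3.92 and 4.47 at day 3, and on the smSocs3-KO arrays it was 5.29, 4.08 and 4.03 before and 3.63, 4.55 and 4.12 after. The groups overlapped in each genotype. The Hsph1 difference at day 3 was -0.39 in WT and -0.36 in the smSocs3-KO response (SE 0.35, limma adjusted p = 0.536), and 0.05 within slide 2.

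Bag3 encodes another exchange factor, which couples Hsp70 to autophagy of damaged filamin and other contractile proteins in muscle. Its level in WT was 3.97, 3.66 and 3.69 before challenge and 3.55, 3.28 and 3.39 at day 3. The WT groups of Bag3 did not overlap, and the difference was -0.36. On the smSocs3-KO arrays the Bag3 level was 4.57, 3.28 and 3.73 before challenge and 3.55, 3.67 and 4.10 at day 3. The smSocs3-KO difference of Bag3 was -0.09 (SE 0.29, limma adjusted p = 0.868), and 0.27 within slide 2.

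The small heat shock protein Hspb1 (Hsp27) holds unfolded proteins in solution and binds actin filaments in smooth muscle. Its level was 7.96, 7.55 and 7.71 in WT before challenge and 7.45, 8.0 and 8.63 at day 3, and on the smSocs3-KO arrays 8.51, 7.47 and 7.70 before and 8.04, 8.44 and 8.86 after. In each genotype the groups overlapped by a single array. The difference was 0.29 in WT and 0.55 in the smSocs3-KO response (SE 0.35, 95% interval -0.21 to 1.32, limma adjusted p = 0.347), and within slide 2 it was 0.86.

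Hspa8 and Hsp90aa1 encode cytosolic chaperones that turn over client proteins continuously, the constitutive Hsp70 and an Hsp90. Hspa8 lay between 7.64 and 8.43 on all arrays and its group means were 7.91 to 7.92, a difference of 0.00 in WT and of -0.01 in the smSocs3-KO response (95% interval -0.51 to 0.49), and 0.24 within slide 2. Hsp90aa1 lay between 4.87 and 5.88, with a difference of 0.17 in WT and of -0.30 in the smSocs3-KO response (95% interval -0.81 to 0.20), and -0.03 within slide 2. For Hspa8, other probes gave other values. At day 3 on the smSocs3-KO arrays another probe lay at 3.60, 4.95 and 5.01 and a further one at 6.20, 6.65 and 6.90, with smSocs3-KO differences of 0.36 and 0.41, and neither passed the test (limma adjusted p = 0.535 and 0.349 over 32287 probes).

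**Figure D2:**
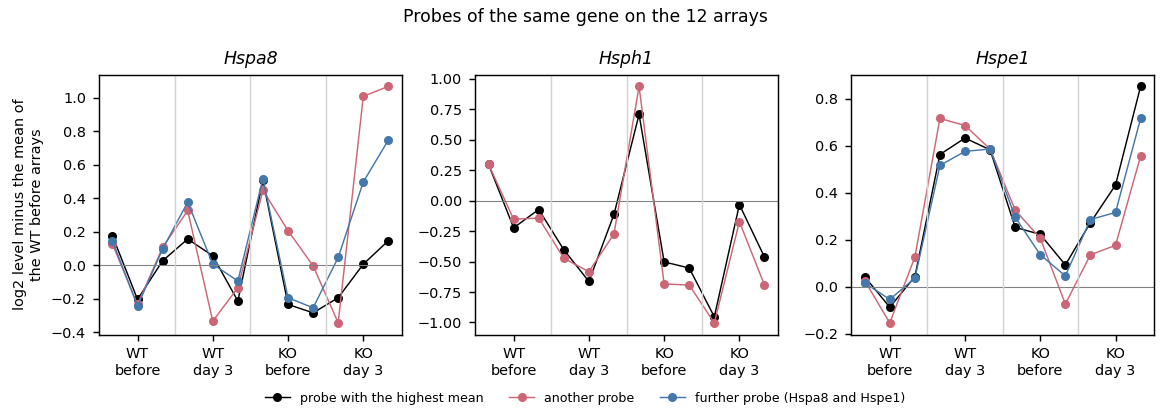
Log2 level of each probe of Hspa8, Hsph1 and Hspe1 minus its own mean over the 3 WT before arrays (y axis), on the 12 arrays in group order (x axis). The probes of Hsph1 and Hspe1 run together across the arrays, while those of Hspa8 part on the smSocs3-KO day 3 arrays.

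Hspd1 (Hsp60) and Hspe1 (Hsp10) form the barrel and the lid of the mitochondrial chaperonin, which folds proteins imported into the matrix. The Hspe1 level in WT was 4.01, 3.88 and 4.01 before challenge and 4.53, 4.60 and 4.55 at day 3. On the smSocs3-KO arrays it was 4.22, 4.19 and 4.06 before and 4.24, 4.4 and 4.82 after. At this probe, the brightest of the gene, Hspe1 was the only one of the 9 genes whose groups were separate in the same direction in each genotype, by a wide margin in WT and by a narrow one on the arrays labelled smSocs3-KO. The difference was 0.59 in WT and 0.33 in the smSocs3-KO response (SE 0.16, 95% interval -0.03 to 0.69, limma adjusted p = 0.247, the smallest of the 9). The smSocs3-KO difference of Hspe1 was 0.36 within slide 2 and 0.16 without smSocs3-KO day 3 replicate 5. The other probes of Hspe1 gave WT differences of 0.66 and 0.56 between groups that did not overlap, and smSocs3-KO differences of 0.14 and 0.28 between groups that did. Hspd1 went from 4.04 to 4.21 in WT before challenge to 4.33 to 4.70 at day 3, a difference of 0.39 between groups that did not overlap, and by 0.31 in the smSocs3-KO response (limma adjusted p = 0.388) with overlapping groups. The latter was 0.33 within slide 2 and 0.06 without smSocs3-KO day 3 replicate 5.

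In the smSocs3-KO response, the only tested one, 0 of the 9 chaperone genes passed an adjusted p under 0.05 in limma, against 2.45% of all genes. At an unadjusted p under 0.05 the count was also 0, against 23.8% of all genes, as it was at the threshold of the paper's methods (unadjusted p under 0.01 and a fold above 4 or below 0.25), which 1.63% of all genes passed. In WT, 2 of the 9 genes lay higher at day 3 without overlap (Hspe1 and Hspd1) and 2 lower (Hspa1a and Bag3), and 35.3% of all genes had WT groups without overlap in either direction. In the smSocs3-KO response 1 gene, Hspe1, had groups without overlap, against 28.1% of all genes. Between genotypes, Hspe1 was without overlap higher on smSocs3-KO arrays before challenge, against 11.1% of all genes, and Bag3 higher at day 3, against 20.5%. With so few genes, these counts do not set the chaperones apart from all genes. The median change of the 9 genes was 0.00 in WT and -0.09 in the smSocs3-KO response, and over all genes it was -0.02 and -0.06. Between genotypes the 9 differences ran from -0.68 to 0.19 before challenge and from -0.33 to 0.75 at day 3, Hspa1a being the extreme each time.

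**Figure D3:**
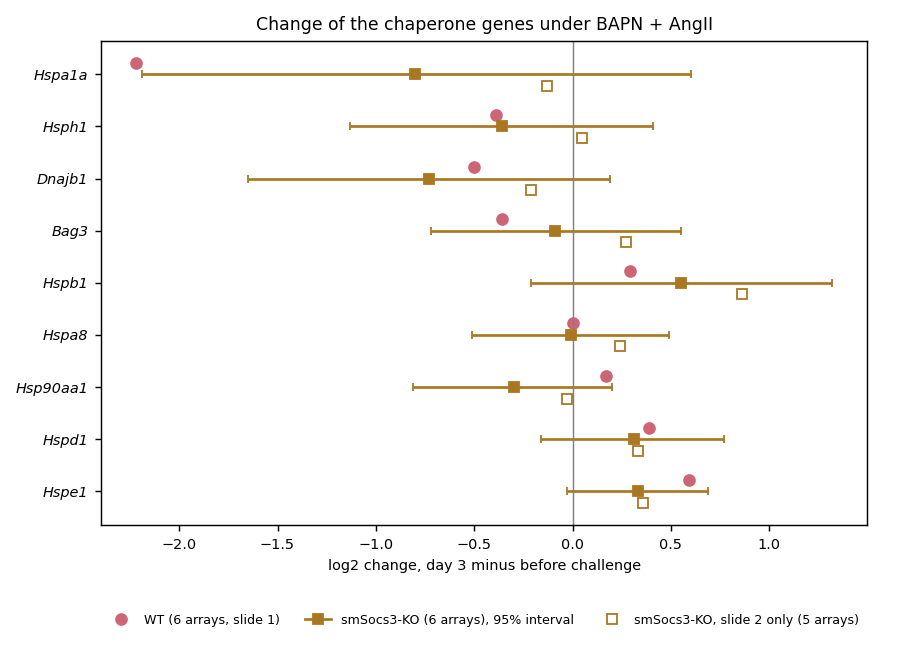
Log2 change from before challenge to day 3 (x axis) for each of 9 chaperone genes (y axis), as circles for WT, filled squares with the 95% interval for smSocs3-KO and open squares for the smSocs3-KO arrays of slide 2 alone. The WT change of Hspa1a is -2.22, all other changes lie between -0.80 and 0.86, and all 9 intervals cross 0.

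A single array carried the highest level of most of the cytosolic chaperones. smSocs3-KO before challenge replicate 1 was the highest of all 12 arrays for 6 of the 9 genes (Hspa1a, Hsph1, Dnajb1, Bag3, Hspa8 and Hsp90aa1), and 19.4% of all genes were highest on that array. This array was picked out after its values were seen. Relative to the mean of the other two arrays of its group, which lay on the other slide, it was higher by 2.0 for Hspa1a, 1.56 for Dnajb1, 1.24 for Hsph1, 1.07 for Bag3, 0.93 for Hspb1, 0.82 for Hsp90aa1 and 0.77 for Hspa8. For the mitochondrial Hspe1 and Hspd1 it was higher by 0.10 and 0.06. The median of the 9 genes was 0.93 and that of all genes was -0.02, and 1.75% of genes exceeded Hspa1a. Over the 9 lists of other chaperone genes described below, the medians on this array lay between -0.36 and 0.16, with the cytosolic chaperonin and prefoldin list at -0.30 and the mitochondrial list at -0.31.

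The same array differed in other ways. Its 75th percentile was the lowest, at a log2 signal of 7.48 where the other arrays lay at 7.97 to 8.79. Its adipocyte markers were higher than on the slide 2 arrays of its group by a median of 0.85 (5 of 5 above), its smooth muscle markers by 0.43 (5 of 6 above), and its endothelium and red blood cell markers were at -0.85 and -1.08 (0 of 4 and 0 of 3 above). Its macrophage markers were at -0.45 (0 of 4 above) and its neutrophil markers at -2.25 (0 of 2 above). The part of tissue makeup, slide and signal strength in the chaperone levels of this array was not tested. Compared within slide 1, it lay above the mean of the WT before arrays, by 0.66 for Hspa1a and by 1.04 for Dnajb1, while Hspe1 and Hspd1 were at 0.26 and 0.13. That comparison sets a single array against arrays of the other genotype label. With that array, slide 1 held 4 arrays before challenge, with Hspa1a at 2.01 to 3.15, and 3 at day 3, with Hspa1a at -0.74 to 0.90. The WT arrays among them are those on which Hspa1a was selected, and slide 1 held no smSocs3-KO day 3 array. This separation is therefore a description only.

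Across the 12 arrays, the members Dnajb1, Hsph1 and Bag3 followed Hspa1a. As whole lists, described below, other partners of Hsp70 did so less, but single J-domain genes also had r above 0.5. The median r with Hspa1a was -0.33 for exchange and partner proteins (0 of 8 above 0.5) and 0.15 for J-domain proteins (5 of 17, or 29.41%). For other heat-inducible genes it was 0.18 (5 of 19, or 26.32%), and for other Hsp70 and Hsp110 genes -0.38 (1 of 8). Following Hspa1a was therefore not particular to Dnajb1, Hsph1 and Bag3. Pearson's r with Hspa1a was 0.78 for Dnajb1, 0.76 for Hsph1 and 0.76 for Bag3 (Spearman's rho 0.85, 0.69 and 0.77). Within groups, that is for the deviations from the 4 group means, r was 0.82, 0.79 and 0.83. Without smSocs3-KO before challenge replicate 1 the values were 0.72, 0.68 and 0.68, and without the 2 arrays farthest from the median of Hspa1a they were 0.77, 0.65 and 0.58. Hspa8 and Hsp90aa1 had r = 0.42 and 0.29, which became 0.14 and -0.12 without that replicate. Hspb1 was at 0.05, and Hspd1 and Hspe1 were at -0.38 and -0.52. Within groups, with the 4 groups pooled, r was 0.64 for Hspa8, 0.62 for Hsp90aa1, 0.57 for Hspb1, 0.19 for Hspd1 and 0.42 for Hspe1. The pooled values need not hold in each group. At day 3 in WT, the array lowest for Hspa1a was the highest for Hspd1 and Hspe1. On the slide 1 arrays alone, r with Hspa1a was -0.84 for Hspd1 and for Hspe1. Hspd1 and Hspe1, which share a promoter region, had r = 0.89 with each other. These correlations are descriptions. The arrays share a slide, a scale and a group, and over all 19517 genes well above background on every array the median r with Hspa1a was 0.02, with 15.97% of genes above 0.5.

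**Figure D4:**
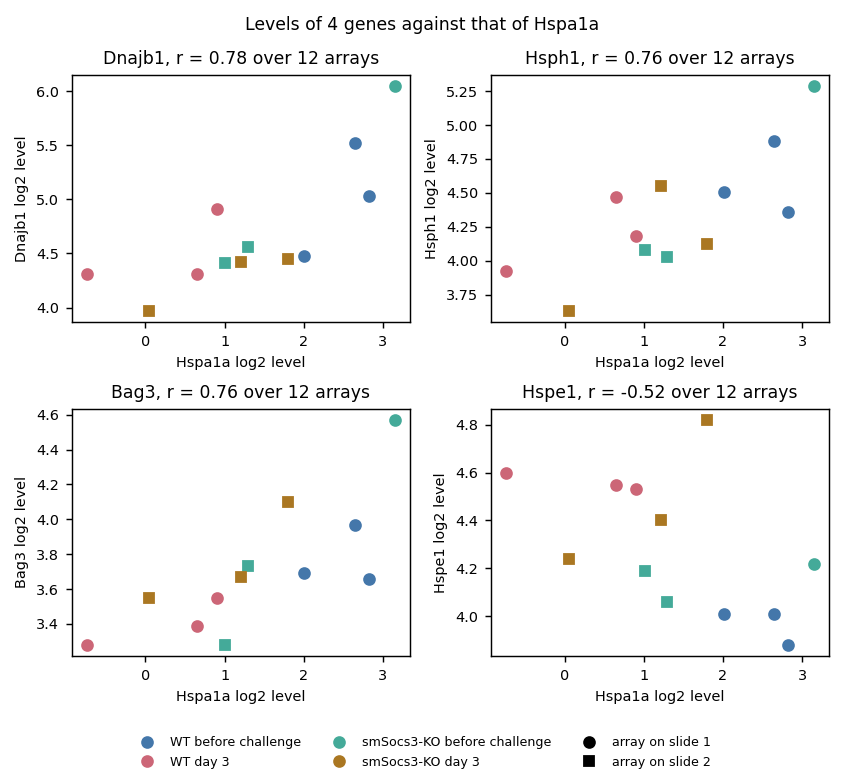
Log2 level of Dnajb1, Hsph1, Bag3 and Hspe1 (y axes) against that of Hspa1a (x axes) on the 12 arrays, coloured by group, with circles for slide 1 and squares for slide 2. The first 3 genes rise with Hspa1a (r = 0.78, 0.76 and 0.76) and Hspe1 runs against it across all arrays (r = -0.52). For deviations from the group means, pooled, r of Hspe1 is 0.42.

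The chaperones were not the genes most like Hspa1a. Dnajb1 ranked 200, Hsph1 302 and Bag3 321 by r. The most alike named genes were Megf9 (r = 0.92), a membrane protein with EGF-like repeats, Ccdc85a, Gm505 and Zfp335 (0.91 each) and Ankle2 (0.90). Their r within groups was 0.81 to 0.87, a range that also holds Bag3 (0.83) and Dnajb1 (0.82). They were chosen by r over arrays that include WT, so a fall in WT goes with that choice. Their changes in WT were all below 0, from -1.52 for Ccdc85a to -0.40 for Zfp335, and in the smSocs3-KO response from -0.51 for Ankle2 to -0.30 for Zfp335. Among marker lists, the median r with Hspa1a was 0.51 for smooth muscle, -0.57 for macrophage, -0.73 for endothelium and -0.76 for red blood cell markers. Without smSocs3-KO before challenge replicate 1 these medians were 0.31, -0.49, -0.64 and -0.73, and within groups they were 0.18, -0.20, -0.66 and -0.79. Across all arrays, the other marker lists had a median r of 0.39 (lymphocyte), 0.03 (adipocyte) and -0.06 (fibroblast). For striated muscle and neutrophil markers it was -0.21 and -0.36. The lists hold 2 to 6 genes each.

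The means of the smooth muscle and macrophage markers also differed between before challenge and day 3. In limma, 0 of 6 smooth muscle markers passed an adjusted p under 0.05 in either response. Of 4 macrophage markers, 0 passed in WT and 2 in the smSocs3-KO response. Over all genes, 51.6% were lower at day 3 in WT and 55.4% in smSocs3-KO. The median smSocs3-KO change was 3.39 for neutrophil markers and 1.22 for adipocyte markers, with 0 called in each list, and in WT these medians were 0.21 and 0.10. All 6 smooth muscle markers had a lower mean at day 3 in each genotype, and the mean log2 level over the list lay at 7.62 to 7.65 in WT before challenge, 6.90 to 7.65 at day 3, 7.49 to 7.88 on the smSocs3-KO before arrays and 6.69 to 7.16 on the smSocs3-KO day 3 arrays. All 4 macrophage markers had a higher mean at day 3 in each genotype, with list means of 1.72 to 1.78, 1.96 to 3.48, 1.70 to 2.30 and 3.32 to 3.47 in the same order. All markers of these lists were well above background on the 12 arrays. In bulk aorta, fewer cells of a type and less RNA per cell cannot be told apart, and the part of cell makeup in the Hspa1a difference was not tested.

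Beyond the 10 genes, 100 other genes of the heat shock and chaperone network stood in 9 lists, and 93 of them were tested. In WT, 1 of the 93 passed the adjusted threshold in limma, against 4.68% of all genes, and 29 had an unadjusted p under 0.05, as had 26.6% of all genes. The one called, named after its value was seen, was Ahsa2, an Hsp90 ATPase activator homologue, at -1.38 (adjusted p = 0.041). In the smSocs3-KO response 3 passed, 2 higher and 1 lower, against 2.45% of all genes, and 17 had an unadjusted p under 0.05, as had 23.8% of all genes. Between genotypes 0 of the 93 passed in limma before challenge, where 0.0264% of all genes were called, and 2 had an unadjusted p under 0.05, as had 4.4% of all genes. At day 3 the counts were also 0 passed, where 1.11% of all genes were called, and 11 with an unadjusted p under 0.05, as had 16.2% of all genes.

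Fkbp5, a co-chaperone that Hsp90 holds on steroid receptors and that glucocorticoids induce, had the clearest change. Its level on smSocs3-KO arrays was 2.17, 0.86 and 1.21 before challenge and 3.12, 4.16 and 4.50 at day 3, and in WT it was 1.63, 0.87 and 1.44 before and 1.95, 1.80 and 2.44 after. The groups did not overlap in either genotype. Fkbp5 rose by 2.51 in the smSocs3-KO response (SE 0.41, limma adjusted p = 0.0197), and in WT the difference was 0.75 (adjusted p = 0.263). The difference between the responses was 1.76 and did not pass the interaction test (adjusted p = 0.87).

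Hmox1, the stress-induced enzyme that breaks down heme, rose by 2.58 in the smSocs3-KO response (SE 0.52, limma adjusted p = 0.0379). Its level there was -0.23, -0.21 and 0.88 before challenge and 2.45, 2.12 and 3.62 at day 3, and the WT difference was 1.24 (adjusted p = 0.159). Dnajc27, which joins a Rab-like GTPase to a J-domain, fell by 1.23 (SE 0.24, limma adjusted p = 0.0367), from -1.65, -2.56 and -2.37 to -3.10, -3.64 and -3.53. All 3 calls were lost without smSocs3-KO before challenge replicate 3 (adjusted p = 0.0625 for Fkbp5, 0.0784 for Hmox1 and 0.0557 for Dnajc27) and without smSocs3-KO day 3 replicate 5 (0.0749, 0.119 and 0.117). With slide as a block, which leaves the smSocs3-KO response to slide 2, the difference was 2.89 for Fkbp5, which stayed called (adjusted p = 0.0294), 2.39 for Hmox1 (0.122) and -0.95 for Dnajc27 (0.0865). Macrophage markers, in which Cd68 and Cd14 passed the same test, moved with Hmox1, and their part was not tested.

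By list, the median smSocs3-KO change was 0.38 for cytosolic chaperonin and prefoldin (0 of 14 called, 3 below 0), with Cct2, a subunit of the ring that folds actin and tubulin, at 0.64 (adjusted p = 0.146), and in WT the median was 0.34 (0 of 14 called, 2 below 0). Over the other Hsp70 and Hsp110 genes it was 0.33 (0 of 9 called), with the testis-type Hspa1l at -0.81 and the mitochondrial Hspa9 at 0.50. Hspa1l lies beside Hspa1a in the genome, and its WT difference was -1.21. The Hsp90 co-chaperones had a median of 0.05 (1 of 17 higher), with the myosin chaperone Unc45b lowest at -0.95 (adjusted p = 0.195). The J-domain proteins had a median of 0.03 (1 of 17 lower), with Dnajc7 highest at 0.66.

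Exchange and partner proteins of Hsp70 had a median of -0.01 (0 of 8 called), from Bag2 at -0.20 to Bag4 at 0.48. The small heat shock proteins had a median of 0.09 (0 of 5 called), from Hspb6, an actin-associated relaxant of smooth muscle, at -0.59 to Hspb7 at 0.52. Mitochondrial chaperones and proteases had a median of 0.13 (0 of 13 called), with Hscb lowest at -0.17. Heat shock factors and their regulators had a median of -0.23 (0 of 5 called), from Hsf4 at -1.39 (adjusted p = 0.0622) to Hsbp1, a binder of heat shock factor 1, at 0.11. Other heat-inducible genes had a median of -0.14 (1 of 19 higher), with Dnajb4 lowest at -0.97 (adjusted p = 0.303).

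Immediate early genes, which growth factors and mechanical stress induce within minutes, were set beside them. None of 15 passed in either challenge response in limma, where 4 had an unadjusted p under 0.05 in WT and 4 in the smSocs3-KO response, against 26.6% and 23.8% of all genes. Between genotypes Arc, named after its value was seen, was lower on smSocs3-KO arrays at day 3 by a log2 difference of -3.48 (adjusted p = 0.0216), where 1.11% of all genes were called. At day 3 all WT arrays lay on slide 1 and all smSocs3-KO arrays on slide 2, so slide and genotype cannot be told apart there. The median change of the immediate early genes was 0.14 in WT and 0.34 in the smSocs3-KO response, from Atf3 at -1.07 to Ier3 at 2.21 (adjusted p = 0.0638). Their median r with Hspa1a was -0.16.

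**Figure D5:**
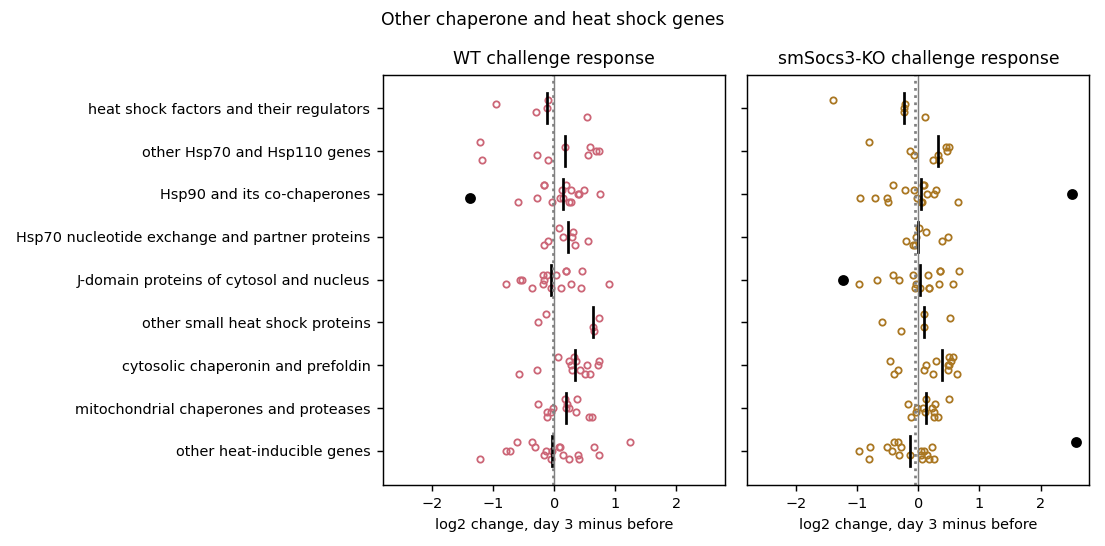
Log2 change from before challenge to day 3 (x axes) of 93 other chaperone and heat shock genes in 9 lists (y axis), in WT and in smSocs3-KO, with filled points for adjusted p under 0.05, vertical bars for list medians and a dotted line for the median of all genes. Only Ahsa2 is filled in WT (-1.38), and Fkbp5 (2.51), Hmox1 (2.58) and Dnajc27 (-1.23) in smSocs3-KO.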

How the data were processed

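RNA from 12 aortic samples was measured on 1-colour arrays (SurePrint G3 Mouse, mm9 probe positions). The authors deposited each array's scanner output, with a linear, background-subtracted intensity for every spot (Feature Extraction 10.7.1.1 in the files and 9.5.1.1 in the submitters' processing notes), and a table of quantile-normalized intensity values with Spearman correlations of at least 0.99997 with the scanner values. The scanner flags (other) mark spots as well above background, saturated or outliers, per the file headers. Here log2 was taken, control and outlier spots were left out, spots of a probe were averaged and the array's 75th percentile was subtracted. A probe stayed in (32287 of 55681) if some group had it well above background on its 3 arrays, and the brightest probe stood for a gene. Of 22765 genes, 15706 (69%) matched the RefSeq table of GRCm38.p6, used for names and promoters only.

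The 4 group means were fitted with limma 3.58.1 in R 4.3.3 over all 12 arrays, with Benjamini-Hochberg adjustment over all genes. The model was run on simulated data with independent noise, large changes and no slide effect. That run does not cover small differences or the confounding of slide and genotype. Exact permutation of 3 against 3 arrays cannot go below p = 0.1 and was not used. Depth does not apply to arrays, and 3 arrays per group limit the precision. The members and lists were chosen with earlier results of these data known. Genes named were the members, the 5 genes most correlated with Hspa1a, and in each list the highest and lowest smSocs3-KO change and called genes, with exceptions stated. Alternatives were other background corrections, normalizations, probe filters, probe choices, moderation, slide or replicate blocks and leaving out each array. Groups came from sample titles. No amino acid sequence was used here.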

Additional observations from a re-analysis of the deposited data

Results flagged for a closer look

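Pfdn1, a subunit of the prefoldin complex that hands actin and tubulin to the cytosolic chaperonin, had differences of opposite sign in the challenge responses of the labelled genotypes, neither of which passed the test. In WT its log2 level was 2.78, 2.68 and 2.67 before challenge and 3.09, 2.92 and 2.88 at day 3. On the smSocs3-KO arrays it was 3.19, 2.81 and 2.45 before challenge and 2.57, 2.30 and 2.15 at day 3. All 3 WT day 3 arrays lay above their before mean and all 3 smSocs3-KO day 3 arrays below theirs. The smSocs3-KO change minus the WT change was -0.73, and the limma interaction term did not pass (adjusted p = 0.914). The WT response was 0.25 (limma adjusted p = 0.43). The smSocs3-KO response was -0.47 (adjusted p = 0.177) between groups that overlapped, and -0.29 within slide 2.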

How the results depend on the processing

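The Hspa1a difference in WT, the value that singled the gene out, ran from -2.36 to -2.03 under 12 other settings of the processing. Settings that change only the probe filter, the probe mean, the moderation or the slide block cannot move it. Hspa1a has a single probe, and all WT arrays lay on a single slide. In the smSocs3-KO response, 0 of the 9 chaperone genes were called under any setting or left-out array. Small smSocs3-KO differences changed sign. Hspa8 went from -0.01 to 0.08 with normexp background correction, 0.06 with normexp and quantile normalization, 0.02 with quantile normalization and with the authors' value table, 0.20 with the median as scale, 0.25 with the mean over probes and 0.24 with slide as a block. Bag3 went to 0.01 with normexp, 0.12 with the median as scale and 0.27 with slide as a block, and Hsph1 to 0.05 with slide as a block. With the replicate number as a block Hspa8 was 0.03, Hsph1 0.07, Hspd1 0.00, Bag3 0.00 and Hspa1a -0.67 in the smSocs3-KO response. Same-numbered arrays deviated from their group means with correlations of -0.40 to 0.46, and the labels do not say what the numbers mark. The replicate block left 0 other chaperone genes called in each challenge response. It moved the calls over all genes from 1065 to 0 in WT and from 557 to 2 in the smSocs3-KO response. Leaving out arrays gave smSocs3-KO ranges of -1.20 to -0.13 for Hspa1a, -0.15 to 0.24 for Hspa8, -0.59 to 0.05 for Hsph1, -0.38 to 0.27 for Bag3, -0.44 to -0.03 for Hsp90aa1, 0.06 to 0.44 for Hspd1 and 0.16 to 0.45 for Hspe1. The sign of Hspa8, Hsph1 and Bag3 turned without smSocs3-KO before challenge replicate 1, and that of Hspa8 and Bag3 also without smSocs3-KO day 3 replicate 2 (0.08 and 0.02).

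The median change of the chaperone genes in WT went from 0.00 to -0.27 with normexp and quantile normalization and to -0.23 with quantile normalization and with the authors' value table. With slide as a block the median genotype difference went from 0.09 to 0.68 before challenge and from -0.01 to 1.15 at day 3, with that estimate resting on smSocs3-KO before challenge replicate 1 alone, and no gene of the array was called between genotypes. The 1 chaperone gene without overlap in the smSocs3-KO response became 2 with normexp and quantile normalization and with the median as scale, and 0 with the mean over probes. The 1 without overlap between genotypes before challenge became 0 with normexp and quantile normalization, quantile normalization, the authors' value table and the mean over probes. Leaving out arrays gave 4 to 7 without overlap in WT, 1 to 3 in the smSocs3-KO response, 1 to 4 between genotypes before challenge and 1 to 4 at day 3, the highest without WT day 3 replicate 1, smSocs3-KO before challenge replicate 1 (in the response and before challenge) and smSocs3-KO day 3 replicate 5.

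Calls among the other chaperone genes were unstable. In WT the count of 1 became 0 with normexp, with no filter on dim probes and with only the arrays compared, 2 with the median as scale, with probes well above background on all 12 arrays and with the mean over probes, 3 with trended and robust moderation and 4 with slide as a block. In the smSocs3-KO response the count of 3 became 1 with no filter and with slide as a block and 0 with only the arrays compared, with Fkbp5 alone called with no filter (adjusted p = 0.0378) and with slide as a block. At day 3 the genotype count of 0 became 1 with normexp, normexp and quantile normalization, the median as scale and trended and robust moderation. Leaving out arrays gave 0 to 12 in WT, 0 to 5 in the smSocs3-KO response and 0 to 1 at day 3, the highest in each without WT day 3 replicate 4. Over all genes, leaving out that replicate moved the WT count from 1065 to 3627, and leaving out any other WT array left 0 to 3. The causes were not tested.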
